A study of Mus musculus with 8 samples.

Results

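The transcripts described here are those of 9 apolipoproteins, Apoa1, Apoa2, Apoa4, Apoa5, Apob, Apoc1, Apoc3, Apoe and Apom, and of Mttp, which encodes the microsomal triglyceride transfer protein. They were taken by gene symbol from the probe sets that the platform annotation gives a single symbol, and all 10 were measured, out of 22180 genes in all. Each had 1 such probe set. Liver RNA of wild-type C57BL/6 mice was measured on Affymetrix whole-transcript arrays in 8 samples, with an array for each. 4 samples came from mice given daily oral rilpivirine, a non-nucleoside inhibitor of the HIV reverse transcriptase, at a dose that the labels describe only as clinically relevant, and 4 came from controls. All 8 samples carry the label of non-alcoholic fatty liver disease. Normal chow and a diet of 60% fat, fed for 3 months, are both named in the protocol, which does not tie either to a sample; the sources used here give neither age nor vehicle. Whether each sample was its own mouse is not stated, so the p-values here reflect spread among samples that may be technical replicates. The small number of arrays, 4 in each group, limits what can be resolved.

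The liver packages triglyceride and cholesterol into lipoproteins, particles whose surface carries apolipoproteins. Apolipoprotein B forms the backbone of very low density lipoprotein and is loaded with lipid by the transfer protein in the endoplasmic reticulum. The A apolipoproteins and apolipoprotein M belong mainly to high density lipoprotein, whereas the C and E apolipoproteins move between particles and set how quickly these lose triglyceride and are taken up again. In fatty liver, secretion of these particles is a main route by which triglyceride leaves hepatocytes. The comparison asks whether transcripts of this machinery differed between livers of mice given rilpivirine and controls.

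4 of the apolipoprotein genes, Apoa1, Apoc3, Apoa4 and Apoa5, follow each other on mouse chromosome 9, and Apoc1 and Apoe are next to each other on chromosome 7. The other 4 lie apart on chromosomes 1 (Apoa2), 3 (Mttp), 12 (Apob) and 17 (Apom). The 250 bases before the RefSeq start of transcription are shown for Apoa4, Apoa5 and Mttp, and for Apoa1, which shares the chromosome 9 group with Apoa4 and Apoa5. Apoa4, Apoa5 and Mttp were chosen after the values were seen, as positively correlated over the arrays. None of the correlations among them passed adjustment (Pearson, exact permutation, adjusted p from 0.214 to 0.391 over 45 pairs). A link between these correlations and the sequences was not tested. The sequences are read 5′ to 3′ on the coding strand from RefSeq's GRCm38.p6, in lower case with motif matches in capitals.
Apoa1 (chr9:46228380-46228629, plus strand): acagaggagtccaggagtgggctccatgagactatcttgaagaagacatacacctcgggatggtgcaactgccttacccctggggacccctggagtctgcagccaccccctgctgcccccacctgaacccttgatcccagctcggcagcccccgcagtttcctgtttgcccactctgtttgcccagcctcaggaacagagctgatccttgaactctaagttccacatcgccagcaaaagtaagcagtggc
Apoa4 (chr9:46240594-46240843, plus strand): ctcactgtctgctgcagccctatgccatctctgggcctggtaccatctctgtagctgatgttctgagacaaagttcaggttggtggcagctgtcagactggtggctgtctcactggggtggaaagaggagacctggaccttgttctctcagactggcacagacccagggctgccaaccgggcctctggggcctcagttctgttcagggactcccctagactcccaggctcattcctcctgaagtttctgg
Apoa5 (chr9:46268358-46268607, plus strand): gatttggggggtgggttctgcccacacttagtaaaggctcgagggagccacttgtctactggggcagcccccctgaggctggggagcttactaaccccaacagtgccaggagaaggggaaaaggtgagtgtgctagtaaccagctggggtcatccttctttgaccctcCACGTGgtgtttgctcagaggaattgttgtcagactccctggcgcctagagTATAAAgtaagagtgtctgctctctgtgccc
Mttp (chr3:138143419-138143668, minus strand): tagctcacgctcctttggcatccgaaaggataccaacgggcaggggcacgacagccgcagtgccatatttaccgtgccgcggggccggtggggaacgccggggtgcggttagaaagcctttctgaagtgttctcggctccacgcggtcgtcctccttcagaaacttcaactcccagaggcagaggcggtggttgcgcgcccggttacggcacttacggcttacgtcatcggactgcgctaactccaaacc

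4 short motifs were searched on both strands of the first listed window of 8 of the genes, with 27025 promoters of the same length as the background. CACGTG, the E-box bound by clock and other helix-loop-helix factors, was found in 1 of the 8, Apoa5, at 82 to 77 bases before its start, and in 6.05% of all promoters. TATAAA, the TATA box, stood at 31 to 26 bases before the start of Apoa5, at 60 to 55 bases in Apob and at 212 to 207 bases in Apoa2, so in 3 of 8, against 13.0% of all promoters. CAAAGTC, the core of the binding site of HNF4A, was in 0 of the 8 and in 3.80% of all promoters. AGGTCA, the half-site of nuclear receptors, was in 0 of the 8 and in 13.8% of all. No 2 of these motifs overlapped in the 8 windows. A match describes only letters in these windows, and so does a missing match.

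All the samples had the transcripts of hepatocytes at high level. The 9 measured hepatocyte markers ranged from 11.3 to 13.3 in mean log2 value, and the 12 enterocyte markers, of the other cell type that makes apolipoproteins A and B, stayed at or below 3.88 except for the fatty acid binding protein Fabp2 at 8.33. The mean correlation of an array with the other 7 ran from 0.976 to 0.981, except for rilpivirine replicate 2 at 0.965. Of the 16635 genes in the limma fit, 0.00% were called at 0.05 after Benjamini-Hochberg adjustment, and 5.21% (867 genes) had an unadjusted p under 0.05. In bulk tissue, fewer cells of a type and less RNA per cell cannot be told apart.

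Transcript levels of the apolipoproteins and Mttp in the rilpivirine livers lay close to those of controls. 5 of the 10 had a lower and 5 a higher mean, with log2 differences from -0.091 in Apoa4 to 0.095 in Apoe and a median of -0.0070. Over all tested genes 56.9% had a lower mean, and the median was -0.028. Among genes at or above the 50th percentile of mean level these were 63.8% and -0.062. The count of lower members was 3 of 10 after a further quantile normalization and 7 of 10 with array medians equalised, where 51.2% and 60.1% of all genes were lower. None of the 10 passed limma's adjusted p of 0.05 (adjusted p from 0.912 to 0.988), and 0 had an unadjusted p under 0.05, with 0.375 the smallest. In 0 of the 10 were the groups free of overlap, against 3.04% of all tested genes.

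Each interval gives the sizes of change that the deposited values of 1 gene allowed. It reflects spread among samples that may be technical replicates, and it is not joint over the 10 genes. All 10 of the 95% confidence intervals lay within 0.5 log2 of 0, which is a ratio of 1.41, as did those of 61.3% of all tested genes. The widest bounds were -0.44 in Apoa4 and 0.37 in Apom, so the largest ratio inside any of the 10 intervals was 1.36, in either direction. The median pooled SD within groups was 0.11 log2 for the 10 genes and 0.21 for all tested genes. The 10 genes were bright: each had a mean above that of at least 90.1% of tested genes, and all 10 passed the filter on dim genes. Apoa2, Apoa4, Apob and Apoc1 had means over 12 log2, where the highest value of any probe set was 13.4, and saturation of their probes was not tested.

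**Figure D1:**
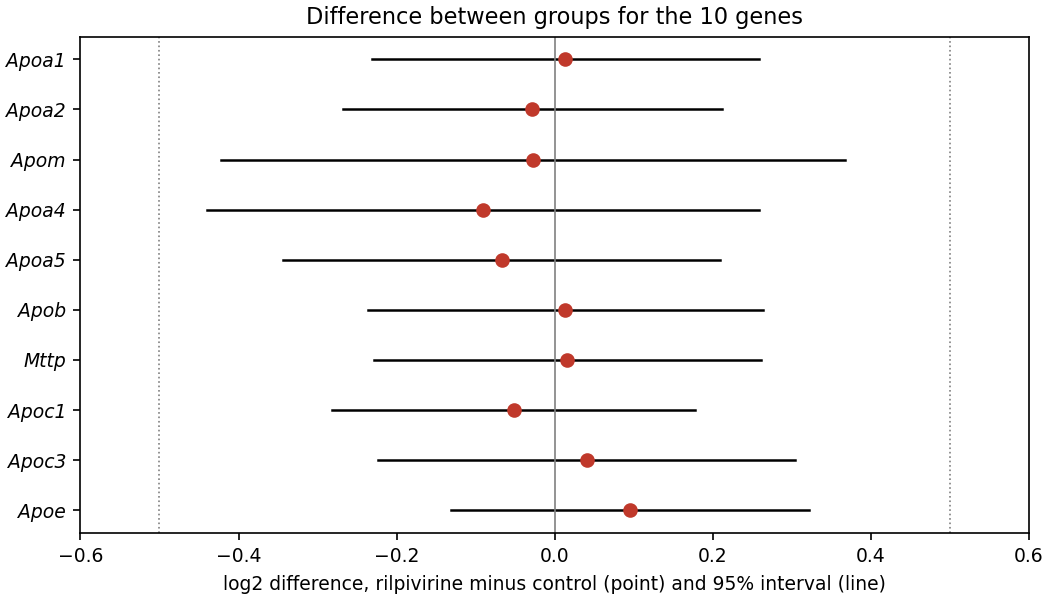
Log2 difference between rilpivirine and control (x axis; point) with its 95% confidence interval from limma (line) for the 10 genes (y axis), 4 arrays per group; dotted lines mark 0.5 log2 on either side of 0. All 10 intervals include 0, and the widest reach -0.44 (Apoa4) and 0.37 (Apom).

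Apoa1 encodes the main protein of high density lipoprotein, which accepts cholesterol from cells and activates its esterification in plasma. It measured 11.81, 11.81, 11.81 and 11.63 log2 in rilpivirine replicates 1 to 4 and 11.65, 11.67, 11.89 and 11.80 in control replicates 1 to 4. The groups overlapped, with the highest and the second lowest value both among controls and rilpivirine replicate 4 lowest of all. The difference was 0.014 log2 (95% confidence interval -0.23 to 0.26).

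Apoa2, the second protein of high density lipoprotein, was 12.85, 12.73, 12.65 and 12.69 log2 with rilpivirine and 12.62, 12.75, 12.82 and 12.84 in controls. Both the highest and the lowest of the 8 values fell at replicate number 1, of the rilpivirine and the control group, and the rest mingled. Its difference was -0.028 (95% confidence interval -0.27 to 0.21). The difference between the changes of Apoa1 and Apoa2 within an array was 0.042 ± 0.062 log2 (SE), with an exact two-sided permutation p of 0.486.

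Apom encodes the carrier of sphingosine 1-phosphate on high density lipoprotein. It spread most of the 10 with rilpivirine: 8.70, 8.27, 8.04 and 7.81 log2 with rilpivirine, against 8.03, 8.30, 8.33 and 8.28 in controls. Both the highest and the lowest value of the 8 arrays were rilpivirine samples, replicates 1 and 4, and the controls lay between them. The SD was 0.38 with rilpivirine and 0.14 in controls (n = 4 each), the difference of the means -0.028 (95% confidence interval -0.42 to 0.37). Without rilpivirine replicate 1 the difference was -0.19, and without rilpivirine replicate 4 it was 0.10, neither past the threshold.

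Apob encodes the backbone protein of very low and low density lipoproteins, 1 molecule to a particle. Its values were 12.32, 12.28, 12.46 and 12.55 log2 with rilpivirine and 12.49, 12.41, 12.40 and 12.26 in controls. Rilpivirine replicate 4 was highest and control replicate 4 lowest, and the groups overlapped. The difference was 0.014 (95% confidence interval -0.24 to 0.26).

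Mttp, whose product loads lipid onto the growing apolipoprotein B chain, was 9.27, 9.03, 9.12 and 9.33 log2 with rilpivirine and 9.20, 9.20, 9.18 and 9.10 in controls. The 4 controls lay inside the range of the rilpivirine samples, with an SD of 0.048 against 0.14. The difference was 0.016 (95% confidence interval -0.23 to 0.26). Apob and Mttp differed in their change by -0.0026 ± 0.064 log2 (SE), with an exact two-sided permutation p of 1.

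Apoa4 encodes an apolipoprotein of triglyceride-rich and high density lipoproteins that the liver and the intestine secrete in response to lipid. It was 12.10, 11.70, 11.99 and 12.48 log2 with rilpivirine and 12.23, 12.06, 12.24 and 12.10 in controls. As with Apom, the highest and the lowest of the 8 values were both rilpivirine samples, here replicates 4 and 2. The SD was 0.32 with rilpivirine and 0.089 in controls (n = 4 each). The mean difference was -0.091 (95% confidence interval -0.44 to 0.26), and it was 0.032 without rilpivirine replicate 2 and -0.23 without rilpivirine replicate 4. Rilpivirine replicate 4, with the highest Apoa4 and the lowest Apom, also had the highest mean of 3 adipocyte markers, 0.90 log2 above the mean of 8 arrays, against -0.28 to -0.025 in the rest. These markers were themselves low, at 3.60 (Plin1), 3.45 (Retn) and 2.88 log2 (Lep) over all arrays, near the filter at 2.72. Rilpivirine and control means were 3.77 and 3.14 in Retn, 3.61 and 3.58 in Plin1, and 2.81 and 2.95 in Lep. The fat cell hormone Adipoq was dim, at 2.66 log2 over all arrays. Rilpivirine replicate 4 was also the highest array in Apob and Mttp and the lowest in Apoa1. The part of fat tissue in the values of Apoa1, Apoa4, Apob, Apom and Mttp was not tested.

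Apoa5 promotes the breakdown of plasma triglyceride by lipoprotein lipase. Its rilpivirine values spanned 9.95 to 10.38 log2 and its control values 10.19 to 10.42, and rilpivirine replicate 2 was the lowest of the 8. Its difference was -0.067 (95% confidence interval -0.34 to 0.21), and 0.013 without that replicate.

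Apoc3, which slows that breakdown and the uptake of remnants, measured 7.64, 7.56, 7.43 and 7.52 log2 with rilpivirine and 7.26, 7.50, 7.61 and 7.61 in controls. Control replicate 1 was the lowest of the 8, and the other 7 mingled. The difference was 0.040 (95% confidence interval -0.22 to 0.30), and -0.039 without control replicate 1. Apoc1, an inhibitor of the lipoprotein-exchange and uptake steps, spanned 11.93 to 12.11 log2 in the rilpivirine samples and 12.05 to 12.17 in controls, a difference of -0.052 (95% confidence interval -0.28 to 0.18), or -0.015 without rilpivirine replicate 2 and -0.026 without control replicate 4.

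Apoe encodes the ligand through which remnant particles bind their receptors in the liver; macrophages make it as well as hepatocytes. Its values were 9.17, 9.13, 9.06 and 9.07 log2 with rilpivirine and 8.93, 9.08, 9.08 and 8.97 in controls. The 2 highest arrays were rilpivirine and the 2 lowest were controls, with the remaining 4 between 9.06 and 9.08. The difference of 0.095 (95% confidence interval -0.13 to 0.32) was a ratio of 1.07, with an adjusted p of 0.912 in limma, and it was 0.081 with array medians equalised and 0.16 after a further quantile normalization. Of 12 macrophage markers 11 had a lower mean with rilpivirine, against 56.9% of all tested genes, with a median difference of -0.14. In limma 2 had an unadjusted p under 0.05, and in 2 the groups did not overlap, against 5.21% and 3.04% of all tested genes. The mean of the markers per array, relative to the 8 arrays, ran from -0.24 to 0.097 with rilpivirine and from -0.070 to 0.21 in controls. The part of macrophages in the Apoe value was not tested.

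**Figure D2:**
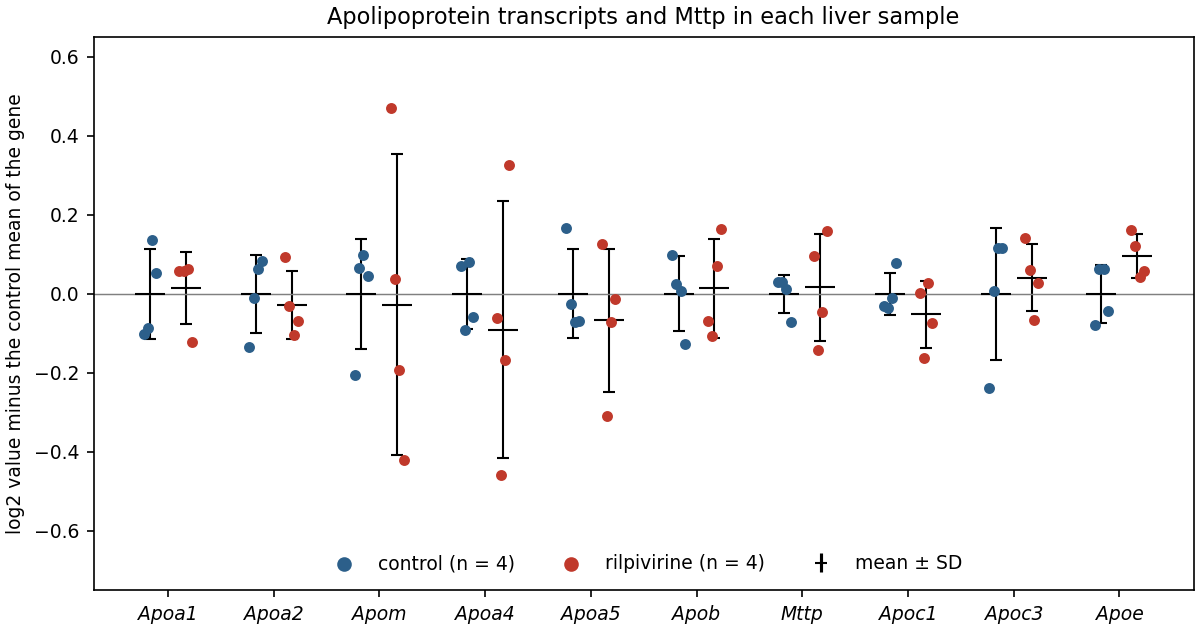
Log2 value of each array minus the control mean of the same gene (y axis) for the 10 genes (x axis), with blue points for the 4 controls, red points for the 4 rilpivirine samples, and black bars for mean ± SD. The groups overlap in every gene shown, and Apom and Apoa4 have the widest rilpivirine spreads, with SDs of 0.38 and 0.32 against 0.14 and 0.089 in controls.

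A larger SD with rilpivirine was seen in 6 of the 10 genes, Apoa4, Apoa5, Apob, Apoc1, Apom and Mttp, and in 69.8% of all tested genes. The array of rilpivirine replicate 2, which correlated least with the others, was the lowest of the 8 in 4 genes (Apoa4, Apoa5, Apoc1 and Mttp) and the highest in 0. Rilpivirine replicate 1 was highest in 4 (Apoa2, Apoc3, Apoe and Apom) and lowest in 0. Rilpivirine replicate 4 was highest in 3 (Apoa4, Apob and Mttp) and lowest in 2 (Apoa1 and Apom), with deviations from -0.41 to 0.37 log2. Control replicate 1 was lowest in 3 (Apoa2, Apoc3 and Apoe) and highest in 1 (Apoa5). Neither group was uniformly high or low: the mean deviation over the 10 genes was 0.11 and -0.089 log2 in rilpivirine replicates 1 and 2, and between -0.041 and 0.053 in the other 6. A mean near 0 can hide deviations of opposite sign, as in rilpivirine replicate 4.

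Neighbouring or functionally paired genes were also set against each other. For 10 pairs, the difference of the 2 genes within each array was compared between groups by exact permutation over 70 regroupings, two-sided, with a smallest possible p of 0.0286, so that no single pair could pass 0.05 after adjustment over the 10. Apoe and Apoc1, neighbours on chromosome 7, differed most, by 0.15 ± 0.075 log2 (SE; exact p = 0.114, adjusted over the 10 pairs 1). In the chromosome 9 group the 6 pairs differed by -0.13 to 0.10 log2 with exact p-values from 0.400 to 0.829. For Apoa1 and Apom the difference was 0.041 ± 0.17 (SE; exact p = 0.914). In 0 of the 10 pairs were the groups free of overlap, and a design of this size cannot show that the genes of a pair act alike.

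Across the 8 arrays the genes varied together in part. Of 45 pairs, 25 had a positive and 20 a negative Pearson correlation. Apoa2 and Apoc3, on different chromosomes, had the strongest (r = 0.89, exact permutation p = 0.000471, adjusted p = 0.0212 over 45 pairs; Spearman's rho = 0.93, exact p = 0.00223, adjusted 0.100; n = 8). It was the only pair past the threshold of 0.05 after adjustment of Pearson's p, and 0 pairs passed for Spearman's. With each group's mean taken off r was 0.95, with array medians equalised 0.89, and without the 2 arrays farthest from the median of Apoa2 it was 0.90 (n = 6, exact p = 0.0167). The adjusted call was lost when any single array other than control replicate 2 was left out, although r itself stayed between 0.87 and 0.93. After a further quantile normalization r was 0.46 and 0 pairs passed. Of the 16634 other tested genes, 48, Apoc3 included, had a correlation with Apoa2 at least as high.

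Apoa4 and Mttp came next (r = 0.84, exact p = 0.0113, adjusted 0.214; rho = 0.55, exact p = 0.171; n = 8). This relation rested on rilpivirine replicates 2 and 4, which were lowest and highest in both genes: without the 2 arrays farthest from the median of Apoa4 r was 0.29 (n = 6, exact p = 0.590). It was 0.29 after a further quantile normalization as well, 0.92 with array medians equalised, and 0.89 with each group's mean taken off. Mttp shared this rank with many genes, since 622 of 16634 correlated with Apoa4 at least as highly. Apoa2 and Apom followed (r = 0.79, exact p = 0.0142, adjusted 0.214), and Apob ran opposite to Apom (r = -0.74, exact p = 0.0311, adjusted 0.350).

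2 sets were read by sign, chosen after the values were seen and with Apoe and Apoc1 left out. Apoa4, Apoa5, Apob and Mttp had positive correlations in all 6 pairs (r from 0.41 to 0.84), and Apoa1, Apoa2, Apoc3 and Apom in 6 of 6 (r from 0.56 to 0.89). Apoe was also positive with Apoa1, Apoa2, Apoc3 and Apom (r from 0.34 to 0.62), and so was Apoc1 (r from 0.097 to 0.35). With Apoa4, Apoa5, Apob and Mttp, r ran from -0.33 to 0.10 for Apoe and from -0.11 to 0.47 for Apoc1. With array medians equalised both sets kept 6 of 6 positive. Without the 2 arrays farthest from the median of the first gene the set with Apoa4 had 5 of 6 (lowest r = -0.18) and the set with Apoa1 6 of 6 (lowest r = 0.036). Between the sets, 15 of 16 correlations were negative, with a median of -0.39, but this split depended on the processing. After a further quantile normalization 14 of 16 were negative (median -0.37), and with each group's mean taken off 15 of 16 (median -0.37). With array medians equalised 10 of 16 were negative with a median of -0.083, and without the 2 farthest arrays 11 of 16 with a median of -0.14. Without control replicate 1 it was 9 of 16 (median -0.16), without rilpivirine replicate 4 it was 11 of 16 (median -0.17), and without any of the others 13 to 16. Apoa1 and Apoa4, both of the chromosome 9 group, had r = -0.46 as deposited and -0.038 with array medians equalised, and Apoa4 and Apoc3 had -0.12 and 0.18. After a further quantile normalization r was -0.42 for Apoa1 and Apoa4 and -0.72 for Apoa4 and Apoc3. The 8 arrays are the same in every pair and share their normalization, so these values describe the arrays and carry no test.

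**Figure D3:**
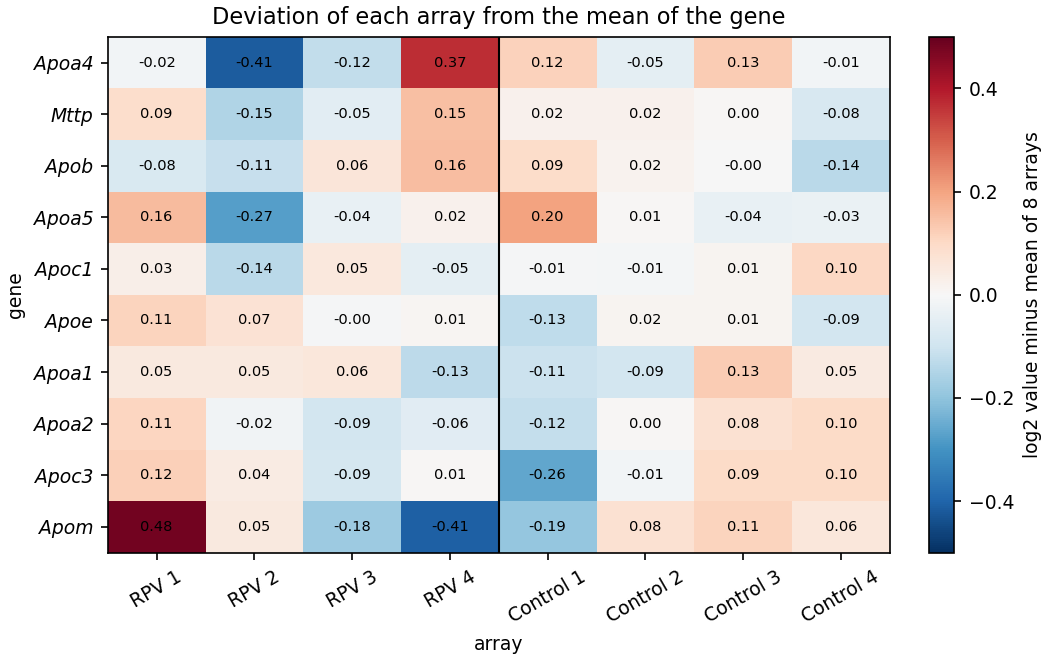
Log2 value of each array minus the gene's mean over 8 arrays, as colour and number, for the 10 genes (rows) and the 4 rilpivirine (RPV) and 4 control arrays (columns, split by the black line). Rilpivirine replicate 4 is high in Apoa4, Mttp and Apob and low in Apoa1 and Apom, and control replicate 1 is low in Apoa1, Apoa2, Apoc3, Apoe and Apom.

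**Figure D4:**
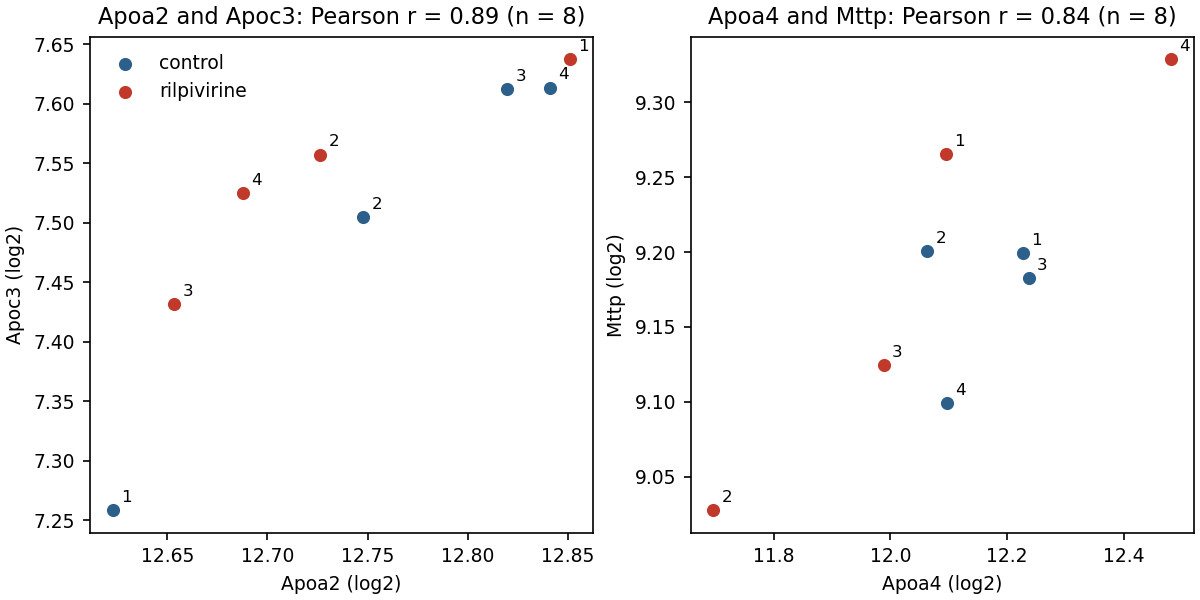
Log2 values of Apoc3 against Apoa2 (left) and of Mttp against Apoa4 (right) in the 8 arrays, blue for control and red for rilpivirine, numbered by replicate; both axes are log2 and do not start at 0. Pearson's r was 0.89 on the left, and on the right it was 0.84, carried by rilpivirine replicates 2 and 4 at the lower left and upper right.

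Other genes of lipoprotein metabolism were taken from 5 lists, and 0 of their members passed limma's adjusted p of 0.05. The counts below stand beside all tested genes, of which 56.9% had a lower mean. Among 4 tested of the other apolipoproteins 3 had a lower and 1 a higher mean (median -0.12). Without rilpivirine replicate 2 the median was -0.054, and without control replicate 3 it was -0.066. Apoc2, the activator of lipoprotein lipase, differed by -0.15 ± 0.13 log2 (SE), Apof by -0.15 ± 0.15 and Apoh by 0.063 ± 0.11.

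Of 21 genes that act in assembly and secretion of apolipoprotein B particles, 14 were lower and 7 higher (median -0.073), and 0 had an unadjusted p under 0.05. Over all tested genes 56.9% were lower and 5.21% had such a p. Among genes at or above the 50th percentile of mean level 63.8% were lower. Leaving out rilpivirine replicate 2 brought the median to -0.0015, and leaving out replicate 4 of that group brought it to -0.13. A second quantile normalization gave -0.029 and array weights gave -0.047. P4hb, which encodes protein disulfide isomerase, the partner subunit of the triglyceride transfer protein, differed by -0.25 ± 0.14 (SE). Dgat2, an enzyme of the last step of triglyceride synthesis, differed by -0.24 ± 0.14, the chaperone gene Hspa5 by 0.32 ± 0.16, and Sort1, a sorting receptor that binds apolipoprotein B, by 0.24 ± 0.14.

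Among 8 genes that remodel lipoproteins in plasma 6 had a lower and 2 a higher mean (median -0.042). The direction of this median was not stable: leaving out rilpivirine replicate 2 gave 0.016, leaving out replicate 4 of that group gave -0.15, a second quantile normalization gave -0.0036, and it lay between -0.079 and -0.021 with any other single array left out. Angptl4, an inhibitor of lipoprotein lipase, had a mean of 7.68 ± 0.64 log2 in the rilpivirine samples against 8.22 ± 0.62 (SD, n = 4 each), a difference of -0.53 ± 0.34 (SE). Lpl, the lipase itself, differed by -0.052 ± 0.23 and Pltp, the phospholipid transfer protein, by 0.38 ± 0.28. Pon3, an esterase carried on high density lipoprotein, differed by -0.22 ± 0.18, and Gpihbp1, the capillary anchor of lipoprotein lipase, by 0.099 ± 0.13. Of 7 sinusoidal endothelial markers 6 had a higher mean, with a median of 0.36. In limma 3 of them had an unadjusted p under 0.05 and 0 were free of overlap, against 5.21% and 3.04% of all tested genes. Their mean per array was -0.15 to 0.30 with rilpivirine and -0.35 to 0.024 in controls, and their part in the Gpihbp1 value was not tested. Of 11 receptors and lipid transporters 4 had a lower and 7 a higher mean (median 0.037). Leaving out rilpivirine replicate 1 turned this median to -0.027, leaving out control replicate 1 gave 0.0067, and a second quantile normalization gave 0.078. Abca1, which loads cholesterol onto apolipoprotein A-I, differed by 0.22 ± 0.13, Abcg8, a sterol exporter into bile, by 0.17 ± 0.18, the receptor Lrp1, which takes up remnants, by -0.071 ± 0.14, and the transporter Abcg1 by -0.13 ± 0.13.

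The transcription factors known to act on apolipoprotein genes held the 3 smallest p-values of the lists. Of 21 tested, 14 were lower and 7 higher (median -0.12; -0.052 after a further quantile normalization, and from -0.13 to -0.068 with 1 array left out, the latter without control replicate 1), 2 lower and 1 higher had an unadjusted p under 0.05, and 0 were free of overlap. Over all tested genes 56.9% were lower, 3.04% were free of overlap and 5.21% had such a p. Of the genes with such a p 38.4% were higher with rilpivirine, or 48.9% after a further quantile normalization. Nr1d1 encodes the clock repressor REV-ERB alpha, which is known to repress Apoc3 and Apoa1 in some species. It was 8.24, 8.85, 8.46 and 8.32 log2 with rilpivirine and 7.33, 8.40, 7.69 and 7.78 in controls, with only control replicate 2 inside the rilpivirine range. The difference was 0.67 ± 0.22 (SE; limma adjusted p = 0.839). Apoa1 and Apoc3 in the same arrays differed by 0.014 and 0.040.

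Ppara, the fatty acid-activated receptor that acts on Apoa1, Apoa5 and Apoc3, was 8.24, 7.61, 7.84 and 7.98 log2 with rilpivirine and 8.14, 8.56, 8.34 and 8.26 in controls. Rilpivirine replicate 1 alone reached the control range, and the difference was -0.41 ± 0.15 (SE; limma adjusted p = 0.890). Foxo1, an insulin-restrained activator of Mttp and Apoc3, differed by -0.51 ± 0.21 (SE; adjusted p = 0.890), with Mttp at 0.016. Mlxipl, which encodes the glucose-responsive factor ChREBP, differed by 0.19 ± 0.16. Hnf4a, the nuclear receptor that drives most of the apolipoprotein genes in hepatocytes, lay between 9.60 and 9.87 with rilpivirine and between 9.74 and 9.85 in controls, a difference of -0.086 ± 0.11 (SE).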

How the data were processed

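The values deposited by the authors are log2 levels of 41345 probe sets. Per the submitters' processing notes, RMA (background correction, quantile normalization and probe summary) made them and limma compared the groups; the sources used here give no versions. Per the labels' protocols, RNA was extracted with Trizol and 300 ng were labelled per array. Because of the quantile normalization in RMA, a change in total mRNA could not be seen. The deposited values were still not equal between arrays, with medians from 3.33 log2 in rilpivirine replicate 4 to 3.45 in rilpivirine replicate 2.

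In the platform annotation 23521 probe sets had 1 symbol, 1814 several and 16010 none. The brightest single-symbol probe set over 8 arrays stood for a gene. Of 22180 genes, the dimmest 25% by mean (under 2.72 log2; 5545 genes) were dropped. limma 3.58.1 (R 4.3.3; lmFit, eBayes) tested the other 16635, two-sided and without covariates, at a Benjamini-Hochberg adjusted p of 0.05. The script was checked on simulated data. Permutation tests ran over all regroupings or orders of the arrays with numpy 2.4.6, and scipy 1.17.1 gave the ranks. Figures used matplotlib 3.10.9. Members and lists were chosen with earlier results of these data known, and the 2 correlation sets after the values were seen. From each list the text names the 2 genes with the smallest p in each direction, plus Hnf4a, Lpl and Apoc2. Alternatives were other normalizations, moderation, weights, filters, probe set means, a block and each array left out; those for correlations with an array left out were added after seeing the data.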

Additional observations from a re-analysis of the deposited data

Results flagged for a closer look

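Chance marks about 1 in 20 groups of 4 by the gap between an extreme sample and its nearest neighbour relative to the range, and 2 of the 62 groups checked were marked, 1 of the 20 of apolipoprotein genes and Mttp. Apoa1 in rilpivirine replicate 4 measured 11.63 log2, away from the rest of its group, which measured 11.81 in each of 3 arrays. Mlxipl in control replicate 2 measured 8.37 log2, where the other controls ran from 7.76 to 7.84.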

How the results depend on the processing

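In all 16 alternatives limma called 0 genes and 0 of the 10 members after adjustment, and 0 members had an unadjusted p under 0.05; the smallest adjusted p of a member was 0.584. The 160 member values ran from -0.23 to 0.16 log2; 138 kept their direction and 22 changed sign around 0. With all 8 arrays the changes of sign were Apoa1 at -0.00071 and Apob at -0.00075 after centring on array medians, Apoa1 at -0.019 with array weights, and Apoa2 at 0.0035 and Apom at 0.036 after a further quantile normalization, where 3 members were lower. With 1 array left out, the ranges were -0.020 to 0.059 for Apoa1, -0.073 to -0.00044 for Apoa2, -0.23 to 0.032 for Apoa4, -0.13 to 0.013 for Apoa5, -0.036 to 0.054 for Apob, -0.078 to -0.015 for Apoc1, 0.069 to 0.12 for Apoe, -0.039 to 0.079 for Apoc3, -0.19 to 0.10 for Apom and -0.031 to 0.069 for Mttp, with 4 to 7 members lower. Leaving out arrays gave 578 to 1524 genes at an unadjusted p under 0.05, the highest without rilpivirine replicate 4. The correlated pairs past adjustment fell from 1 to 0 after a further quantile normalization and without the 2 arrays farthest from the median, and were 0 to 1 with an array left out; the cause was not tested.

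The sample titles link same-numbered samples of the 2 groups only by that number, and whether they shared a batch was not tested. Their deviations correlated at -0.25, 0.46, -0.088 and 0.066, and 2 of 8 samples were closest to their own number. With the replicate number as a block, limma called 0 genes and gave 1071 at an unadjusted p under 0.05 against 867. Of the members, 0 were among them and 5 were lower. The smallest limma adjusted p over all tested genes was 0.230 with the block and 0.595 without it.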
